A study of Equus caballus with 18 samples.

Results

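ATP2A1 and CASQ1, the pump and the buffer of the calcium store in fast muscle fibres, were described across 18 skeletal muscles of 1 male Jeju horse, a pony breed of Jeju Island. They are 2 of the 25239 Ensembl genes in the count table, ENSECAG00000012593 and ENSECAG00000019807. They were taken by identifier, with earlier results of these data known. Both passed the filter on low counts that 14770 genes passed. Each sample, a muscle or 1 of 3 portions of biceps femoris that are counted as muscles here, gave 1 library of total RNA depleted of ribosomal RNA. All came from the same animal, for which the labels name no treatment, so the muscles of a region stand in for replicates and p-values measure only the spread between muscles of 1 horse.

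The muscles were grouped by the anatomy of the labelled muscle. The anterior muscles were the proximal forelimb muscles triceps brachii (long head), biceps brachii, infraspinatus and supraspinatus, the distal forelimb muscles extensor digitorum communis and extensor carpi radialis, and the girdle and neck muscles rhomboideus, omohyoideus, trapezius and pectoralis (labelled pectoralis major, but named differently in the study). The posterior muscles were the proximal hindlimb muscles semitendinosus, gluteus superficialis and the vertebral, middle and caudal portions of biceps femoris, and the distal hindlimb muscles extensor digitorum longus and extensor digitorum lateralis. Longissimus thoracis and lumborum was the only trunk muscle. The study itself divided the muscles into groups A and B and into subgroups A1 to B3 by clustering the same counts. The study exchanges the names A1 and A2 between its displays, and here A1 is the subgroup with triceps brachii and A2 the one with rhomboideus, as in its display of counts by gene.

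A fibre contracts when calcium ions leave the sarcoplasmic reticulum, a store that surrounds the myofibrils, and relaxes when they are pumped back. ATP2A1 encodes SERCA1, the ATP-driven pump of fast fibres, whereas ATP2A2 encodes SERCA2, the pump of slow fibres and of the heart. Inside the store, calcium is held by calsequestrin, a binding protein with a skeletal form encoded by CASQ1 and a form of heart and slow fibres encoded by CASQ2.

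Between 31395013 and 50508515 reads were counted on genes per library. Levels are given as CPM, the counts of a gene scaled to a common library size after correction by TMM, a method that allows for a few very abundant genes taking an unequal share of a library. The TMM factors ran from 0.809 in infraspinatus to 1.44 in omohyoideus, and the most abundant gene took 24.1% to 39.1% of the counts. MYH7, the myosin of slow fibres, and MYH1, a myosin of fast fibres, were both counted in every library, at 881 to 26283 CPM and at 134 to 28709 CPM, although reads of these closely similar genes may have been split between them. Of the 40 markers of other cell types that had been listed, none could be paired with an identifier, and they were not analysed here. In bulk tissue, fewer fibres of a type and less RNA per fibre cannot be told apart.

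ATP2A1 varied widely across the muscles. It was lowest in rhomboideus at 596 CPM and in trapezius at 646 CPM, had a median of 2402 CPM over the 18 muscles, and was highest in infraspinatus at 5539 CPM. The highest level was 9.29-fold the lowest. Rhomboideus and trapezius stood below all the other muscles, of which the next was extensor digitorum lateralis at 1095 CPM. Without these 2 muscles the range of ATP2A1 was 5.06-fold. Next below infraspinatus were extensor carpi radialis at 4278 CPM, supraspinatus at 3829 CPM and the caudal portion of biceps femoris at 3694 CPM.

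CASQ1 varied much less. It ran from 311 CPM in extensor digitorum communis over a median of 452 CPM to 685 CPM in infraspinatus, a 2.20-fold range. The vertebral portion of biceps femoris at 664 CPM, longissimus at 641 CPM and semitendinosus at 608 CPM came next to infraspinatus. In rhomboideus and trapezius, where the pump was lowest, the buffer was at 382 and 420 CPM, and 3 muscles lay below rhomboideus. These were extensor digitorum lateralis at 366 CPM, biceps brachii at 337 CPM and extensor digitorum communis.

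The spread of both genes was set beside that of all genes with a mean of at least 10 CPM. The SD of log2 CPM over the 18 muscles was 0.89 for ATP2A1, higher than for 97.7% of 4035 genes. It was 0.34 for CASQ1, higher than for 56.5% of them, and the median gene had 0.32. The pump was thus among the more variable genes of these muscles, and the buffer was close to the middle. Without rhomboideus and trapezius the SD was 0.63 for ATP2A1 and 0.35 for CASQ1 over 16 muscles. These 2 values were not ranked against other genes.

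**Figure D1:**
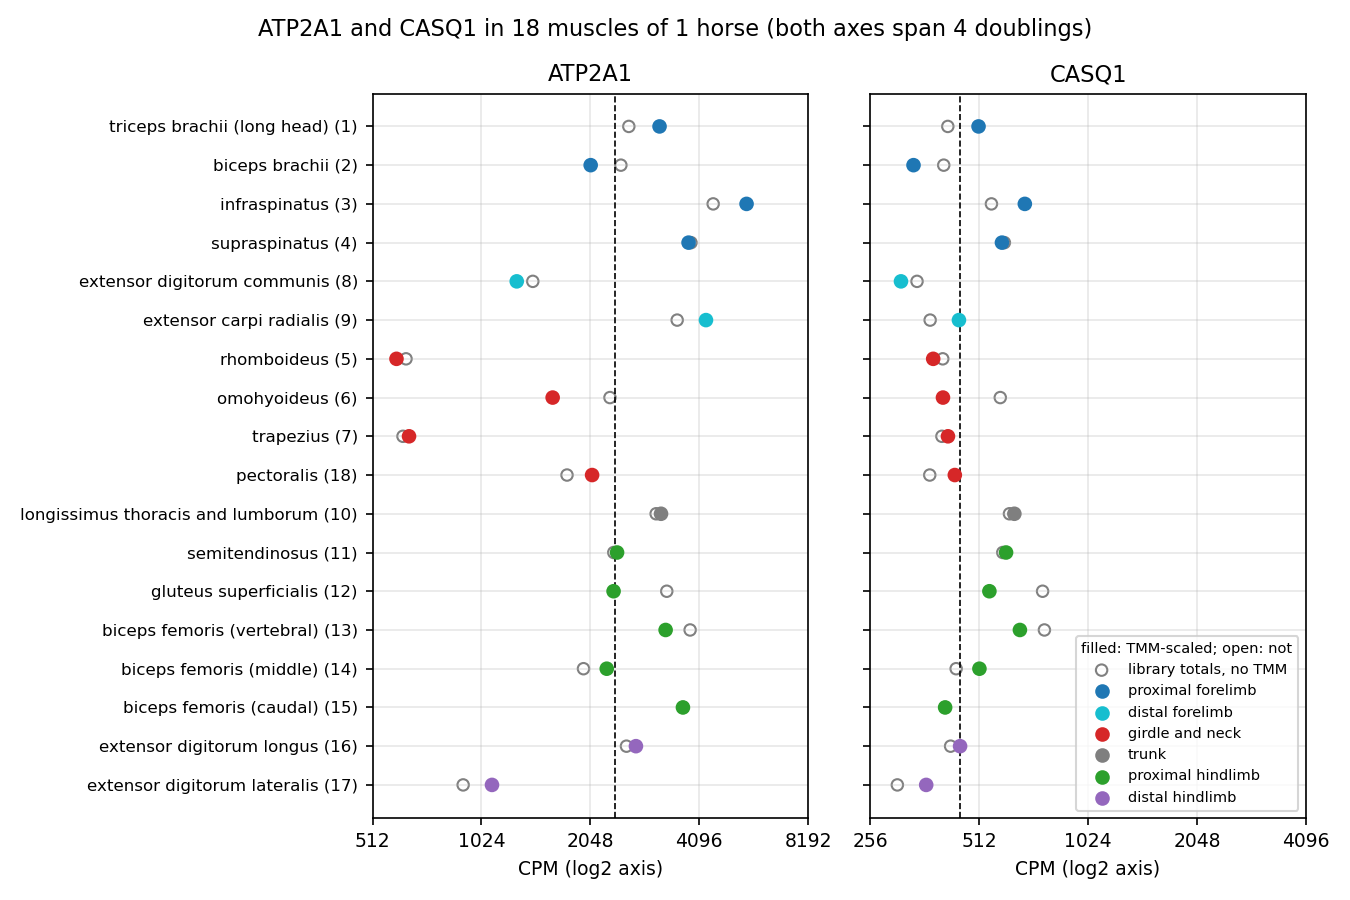
CPM of ATP2A1 (left) and CASQ1 (right) in each of the 18 muscles on log2 axes of equal span, ordered and coloured by region. Filled points are scaled by TMM, open points by library totals alone, and the dashed line is the median; ATP2A1 extends from 596 to 5539 CPM and CASQ1 from 311 to 685 CPM.

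Counting error was small beside these differences. ATP2A1 had 21724 to 175259 reads per library and CASQ1 12521 to 29843, which gives 95% exact Poisson intervals of 0.468% to 1.33% and of 1.14% to 1.76% on either side of the value. These intervals reflect counting alone, as the reads carry no molecular identifiers and need not stem from separate molecules, and with 1 library per muscle the error of sampling and library preparation is unknown. In the order of ATP2A1, 2 of the 17 neighbouring pairs had overlapping intervals, longissimus with triceps brachii and pectoralis with biceps brachii. In the order of CASQ1 there were 5 such pairs, among them extensor digitorum longus, extensor carpi radialis and pectoralis in a row.

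The order depended partly on the scaling. With library totals and no TMM, ATP2A1 ran from 621 CPM in trapezius to 4479 CPM in infraspinatus, a 7.21-fold range, so that the 2 lowest muscles changed places and infraspinatus stayed highest. CASQ1 then ran from 304 CPM in extensor digitorum lateralis to 776 CPM in the vertebral portion of biceps femoris, a 2.55-fold range, and infraspinatus fell from the first place to the seventh at 554 CPM. With DESeq2 size factors and with totals without the 10 most abundant genes, infraspinatus was first in CASQ1 as with TMM.

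The ratio of ATP2A1 reads to CASQ1 reads in a library does not depend on the scaling. Gene lengths were not used, so the ratio is compared between muscles and does not say how many pump transcripts were present per buffer transcript. It was 1.54 in trapezius and 1.56 in rhomboideus, 2.997 in extensor digitorum lateralis, and was highest at 8.09 in infraspinatus, 8.96 in the caudal portion of biceps femoris and 9.50 in extensor carpi radialis. The extremes differed 6.18-fold, and 3.17-fold without rhomboideus and trapezius. Exact binomial 95% intervals were 1.27% to 2.11% wide on either side, and 7 of the 17 neighbouring pairs in the order of the ratio overlapped, among them rhomboideus with trapezius and semitendinosus with omohyoideus. Infraspinatus had the most reads of the pump relative to its library and the third ratio, as its CASQ1 was high as well.

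The levels of pump and buffer went together in part. Over the 18 muscles, which share 1 horse and the scaling of their libraries, Pearson's r of log2 CPM was 0.63 and Spearman's rho was 0.70. Without rhomboideus and trapezius, the 2 muscles farthest from the median of ATP2A1, r was 0.69 over 16 muscles. With no TMM it was 0.57. A doubling of ATP2A1 went with a difference in log2 CPM of CASQ1 of 0.24 by least squares, and of 0.39 without rhomboideus and trapezius. Spearman's rho was 0.81 over the 10 anterior and 0.25 over the 7 posterior muscles, whereas Pearson's r was 0.67 and 0.48. Whether anterior and posterior muscles differ in this was not tested. The caudal portion of biceps femoris and extensor carpi radialis were high in ATP2A1 with CASQ1 at 412 and 450 CPM, at or below its median.

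**Figure D2:**
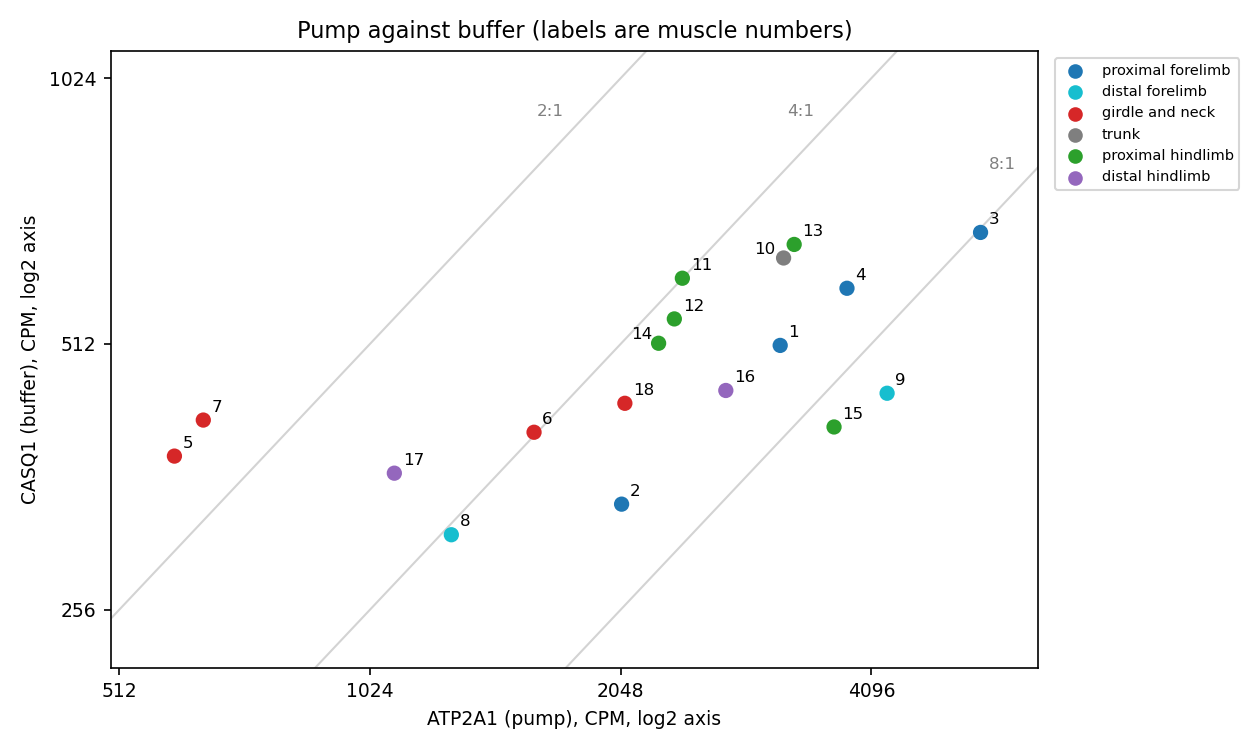
CASQ1 CPM against ATP2A1 CPM on log2 axes, with 1 point per muscle, numbered as in the plot of levels by muscle and coloured by region; grey lines mark equal read ratios. Muscles 5 (rhomboideus) and 7 (trapezius) lie to the left at ratios of 1.56 and 1.54, and muscles 15 and 9 (the caudal portion of biceps femoris and extensor carpi radialis) lie to the right at 8.96 and 9.50.

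Anterior and posterior muscles were compared to ask whether the position on the body separates the levels. ATP2A1 had a lowest, median and highest level of 596, 2063 and 5539 CPM in the 10 anterior muscles and of 1095, 2429 and 3694 CPM in the 7 posterior muscles. CASQ1 had 311, 429 and 685 CPM in the anterior and 366, 513 and 664 CPM in the posterior muscles. With TMM, all 7 posterior muscles lay within the anterior range for each gene. Outside the posterior range lay 5 of the 10 anterior muscles for ATP2A1 and 3 for CASQ1. The anterior muscles included both the highest and the lowest level of each gene with TMM. With no TMM both extremes of CASQ1 were posterior, extensor digitorum lateralis at 304 CPM and the vertebral portion of biceps femoris at 776 CPM. The SD of log2 CPM of ATP2A1, with TMM, was 1.1 in the anterior and 0.57 in the posterior muscles.

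In edgeR's quasi-likelihood fit, the log2FC of ATP2A1, anterior against posterior, was -0.03 (SE 0.39, 95% interval -0.85 to 0.79, adjusted p = 0.981). That of CASQ1 was -0.17 (SE 0.17, interval -0.53 to 0.19, adjusted p = 0.675). Neither passed the threshold, an adjusted p below 0.05 with an absolute log2FC above 0.58, which 5 of 12978 genes (0.0385%) passed. The ratio of ATP2A1 to CASQ1 ran from 1.54 to 9.50 in the anterior and from 2.997 to 8.96 in the posterior muscles. The mean log2 ratio differed by -0.10 (SE 0.34), with p = 0.796 in a two-sided exact permutation test and 0.796 after adjustment over the 4 comparisons of the ratio. Without rhomboideus and trapezius, left out after their values were seen, the log2FC of ATP2A1 was 0.22 (SE 0.31), given without a p.

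Within the proximal muscles, forelimb and hindlimb were compared. In the proximal forelimb, ATP2A1 was at 2053 CPM in biceps brachii, 3183 in triceps brachii, 3829 in supraspinatus and 5539 in infraspinatus. In the proximal hindlimb it was at 2275 CPM in the middle portion of biceps femoris, 2376 in gluteus superficialis, 2429 in semitendinosus, 3309 in the vertebral and 3694 in the caudal portion of biceps femoris. With TMM the hindlimb values all lay within the range of the forelimb values. CASQ1 was at 337, 510, 592 and 685 CPM in biceps brachii, triceps brachii, supraspinatus and infraspinatus. It was at 412 CPM in the caudal portion of biceps femoris, 513 in the middle portion, 547 in gluteus superficialis, 608 in semitendinosus and 664 in the vertebral portion, again within the range of the forelimb with TMM. The log2FC, forelimb against hindlimb, was 0.37 for ATP2A1 (SE 0.44, adjusted p = 0.75 by edgeR) and -0.05 for CASQ1 (SE 0.22, adjusted p = 0.946), where 2 of 14770 genes (0.0135%) passed the threshold. The log2FC of ATP2A1 was 0.10 without infraspinatus and 0.57 without biceps brachii. That of CASQ1 was -0.19 and 0.12 without these muscles. With no TMM the log2FC was 0.14 for ATP2A1 and -0.27 for CASQ1, beside a median of -0.151 over all genes. CASQ1 was then at 767 CPM in gluteus superficialis and 776 in the vertebral portion, above the highest forelimb value, 601 in supraspinatus. ATP2A1 was then at 2378 CPM in semitendinosus and 1961 in the middle portion, below the lowest forelimb value, 2489 in biceps brachii.

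The read ratio was more uniform in the proximal forelimb than the levels were. It was 6.09 in biceps brachii, 6.24 in triceps brachii, 6.47 in supraspinatus and 8.09 in infraspinatus, a mean of 6.72 ± 0.924 (SD, n = 4). In the proximal hindlimb it was 3.997 in semitendinosus, 4.35 in gluteus superficialis, 4.43 in the middle, 4.99 in the vertebral and 8.96 in the caudal portion of biceps femoris, a mean of 5.35 ± 2.05 (SD, n = 5). All hindlimb values but that of the caudal portion lay below the 4 forelimb values. The difference in mean log2 ratio was 0.39 (SE 0.23), and it did not pass the two-sided exact permutation test (p = 0.175, adjusted 0.349), which could have reached 0.0159 with 4 against 5 muscles. These 5 include 3 portions of 1 biceps femoris. With the portions summed into 1 sample the difference was 0.52 (SE 0.19, adjusted p = 0.114 by the same test with fewer splits). Without the caudal portion of biceps femoris the difference was 0.59, given with no test since that muscle was chosen after its value was seen.

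The 3 portions of biceps femoris differed among themselves although they are parts of 1 muscle. ATP2A1 was 1.46-fold higher in the vertebral than in the middle portion, and 0.616-fold in the middle relative to the caudal portion. CASQ1 went the other way between the vertebral and caudal portions, where it was 1.61-fold higher in the vertebral portion while ATP2A1 was 0.896-fold. Without TMM the fold of ATP2A1 between these portions was 1.05 and that of CASQ1 1.88. The read ratio in the middle portion was 0.495-fold that in the caudal portion. Each portion had 1 library, so these are differences between libraries with no replicate check.

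**Figure D3:**
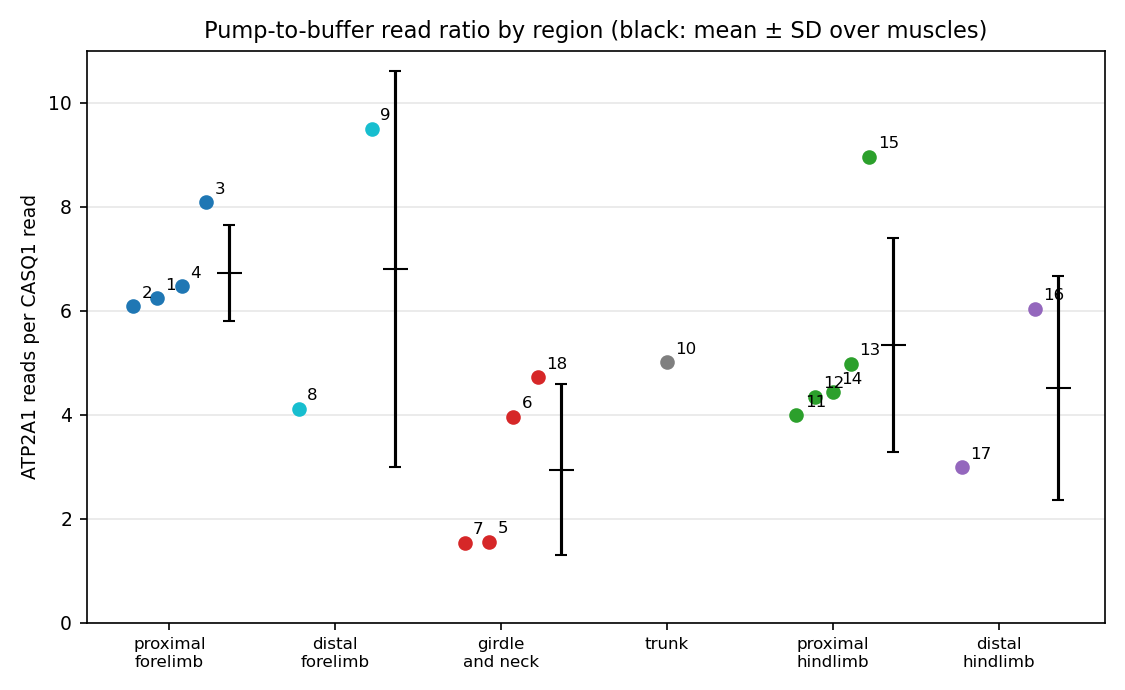
Reads of ATP2A1 per read of CASQ1 in each muscle by region, with muscle numbers; the black bars show the mean ± SD over the muscles of a region with more than 1 muscle. The proximal forelimb lies at 6.09 to 8.09, and the girdle and neck muscles at 1.54 to 4.72.

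Distal limb muscles, all of them extensors, were set against proximal ones. ATP2A1 was at 1282 CPM in extensor digitorum communis, 4278 in extensor carpi radialis, 2739 in extensor digitorum longus and 1095 in extensor digitorum lateralis. Of these 4 values, 2 lay below all 9 proximal muscles and 2 within their range. CASQ1 was at 311, 450, 454 and 366 CPM in the same order, of which only that of extensor digitorum communis lay below the proximal range with TMM. With no TMM the values were 345, 375, 427 and 304 CPM, and the lowest proximal value was 409 CPM in biceps brachii. By edgeR with TMM, the log2FC, distal against proximal, was -0.47 for ATP2A1 (SE 0.40, 95% interval -1.32 to 0.38, adjusted p = 0.443). For CASQ1 it was -0.45 (SE 0.20, interval -0.87 to -0.03, adjusted p = 0.136). The p of CASQ1 before adjustment was 0.0375 by edgeR. Neither gene passed the threshold, which 1606 of 14770 genes (10.9%) passed. With DESeq2 the adjusted p of CASQ1 was 0.0522. Each distal muscle moved the log2FC of ATP2A1 by over 1.5 times. It was -1.03 without extensor carpi radialis and -0.88 without extensor digitorum longus, but -0.17 without extensor digitorum communis and -0.22 without extensor digitorum lateralis.

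The read ratio of the distal muscles was 2.997 in extensor digitorum lateralis, 4.12 in extensor digitorum communis, 6.04 in extensor digitorum longus and 9.50 in extensor carpi radialis. They spanned both ends of the proximal range of 3.997 to 8.96, and the mean log2 ratio differed by -0.16 (SE 0.38, p = 0.613 in the two-sided exact permutation test, adjusted 0.796). The step from proximal to distal was not found to differ between the limbs. The interaction was 0.16 for ATP2A1 (SE 0.79) and -0.06 for CASQ1 (SE 0.39), both with an adjusted p of 1 from edgeR. Leaving out 1 muscle at a time, it ran from -0.95 to 0.97 for ATP2A1 and from -0.35 to 0.17 for CASQ1. With no TMM it was 0.25 for CASQ1, beside a median of 0.276 over all genes. No gene (0%) passed in this comparison, 369 had an unadjusted p below 0.05, and DESeq2 also called 0.

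Girdle and neck muscles gave the lowest levels of the pump. ATP2A1 was at 596 CPM in rhomboideus, 646 in trapezius, 1612 in omohyoideus and 2072 in pectoralis, against 1282 to 5539 CPM in the 6 forelimb muscles. The first 2 lay below all forelimb muscles, and the other 2 were within the forelimb range. CASQ1 was at 382 CPM in rhomboideus, 420 in trapezius, 407 in omohyoideus and 439 in pectoralis, inside the forelimb range of 311 to 685 CPM. This band was narrow only with TMM. With no TMM the same muscles were at 406, 404, 586 and 374 CPM. The log2FC with TMM, girdle and neck against forelimb, was -1.37 for ATP2A1 (SE 0.45, 95% interval -2.32 to -0.42) and -0.13 for CASQ1 (SE 0.22, interval -0.58 to 0.33).

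The difference in ATP2A1 did not pass the threshold. Its p was 0.00712 before and 0.302 after adjustment over all genes by edgeR, and the adjusted p was 0.0542 with DESeq2. In this comparison edgeR called no gene (0%), with 1445 genes at an unadjusted p below 0.05, and DESeq2 called 109. Without rhomboideus and trapezius the log2FC was -0.78 (SE 0.49), given without a p since they were left out after their values were seen. Without extensor carpi radialis the log2FC was -0.81.

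The read ratio was 1.54 in trapezius, 1.56 in rhomboideus, 3.96 in omohyoideus and 4.72 in pectoralis, and 4.12 to 9.50 in the forelimb muscles. In girdle and neck, 3 of 4 muscles lay below every forelimb muscle. The mean log2 ratio was 1.37 ± 0.862 (SD, n = 4) against 2.71 ± 0.411 (SD, n = 6), a difference of -1.33 (SE 0.46). The two-sided exact permutation test gave p = 0.0190, and 0.0762 after adjustment over the 4 comparisons, where 0.00952 was the smallest p that it could give. Without rhomboideus and trapezius the difference was -0.59 (SE 0.21). Its p is not given, since these muscles were left out after their values were seen. A permutation test of 2 against 6 muscles also cannot go below p = 0.0714.

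Slow fibre genes had values of the opposite sign in the same comparison. The log2FC in girdle and neck was 1.30 for ATP2A2 (SE 0.40, adjusted p = 0.276), 1.33 for CASQ2 (SE 0.62, adjusted p = 0.491) and 1.21 for TNNC1, the calcium sensor of slow fibres and the heart (SE 0.34, adjusted p = 0.252), and none of them passed by edgeR. Of the 10 slow fibre genes with a name, 10 had a positive log2FC with a median of 0.98, and of the 8 fast fibre genes 7 had a negative one with a median of -1.06, beside -0.02 over all genes tested. None of the 18 passed the threshold. The part of the makeup of the muscles in the difference in ATP2A1 was not tested.

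The slow counterparts were followed across all muscles. ATP2A2 was lowest in the vertebral portion of biceps femoris at 307 CPM and highest in trapezius at 3192 CPM, a 10.4-fold range, and with ATP2A1 it had a Pearson's r of -0.56 and a Spearman's rho of -0.32. The read ratio of ATP2A1 to ATP2A2, again used only between muscles, ran from 0.202 in trapezius and 0.259 in rhomboideus to 10.7 in extensor carpi radialis and 10.8 in the vertebral portion of biceps femoris. This is a 53.2-fold range, wider than that of either pump. Infraspinatus was high in both pumps, with ATP2A2 at 1454 CPM and a ratio of 3.81. CASQ2 ran from 1.92 CPM in gluteus superficialis to 97.7 CPM in extensor digitorum lateralis, and the read ratio of CASQ1 to CASQ2 was 284 and 3.74 in these muscles.

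Of the 50 calcium handling genes that had been listed, 5 could be paired with an identifier, the 2 members with ATP2A2, CASQ2 and TNNC1. In distal against proximal limb muscles 1 of the 5 passed, CASQ2, which was higher in distal muscles (log2FC 2.51, SE 0.54, adjusted p = 0.00596 by edgeR), beside 10.9% of all genes tested. It was at 97.7 CPM in extensor digitorum lateralis and 20.5 CPM in extensor digitorum communis, but at 4.08 CPM in extensor carpi radialis and 7.61 CPM in extensor digitorum longus, within the proximal range of 1.92 to 8.59 CPM. The call was lost without extensor digitorum lateralis (log2FC 1.12, adjusted p = 0.217 by edgeR) and without extensor digitorum communis (1.71, adjusted p = 0.0725). The median of the 5 was -0.26, beside -0.04 over all genes. In the other comparisons none of the 5 passed. Of the 8 fast fibre genes with a name, 2 passed in this comparison and 6 did not. ACTN3, the alpha-actinin of fast fibres, was lower in distal muscles (log2FC -1.71, SE 0.47, adjusted p = 0.0214), as was FHL3 (-0.90, SE 0.22, adjusted p = 0.0123), while ATP2A1 and CASQ1 did not pass. Without extensor digitorum lateralis neither ACTN3 nor FHL3 passed (adjusted p = 0.131 and 0.0929 by edgeR), and ACTN3 did not pass without extensor digitorum communis (0.0882).

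Groups A and B of the study overlapped in both members, as in nearly all genes. Of 14770 genes, 1.13% lay higher in A and 0.664% lower in A without overlap. ATP2A1 had a lowest, median and highest level of 596, 3183 and 5539 CPM in group A and of 1095, 2376 and 4278 CPM in group B, 9 muscles each. CASQ1 had 311, 420 and 685 CPM in group A and 366, 454 and 664 CPM in group B. The fitted log2FC, A against B, was 0.12 ± 0.36 (SE) for ATP2A1 and -0.05 ± 0.17 (SE) for CASQ1. With no TMM these were 0.018 and -0.16. As the groups were made from these counts, comparisons between them are given as a description without a test.

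Within group A, subgroup A2 was low in the pump. In A1, ATP2A1 was at 3183 CPM in triceps brachii, 3213 in longissimus, 3829 in supraspinatus and 5539 in infraspinatus. In A2 it was at 596 CPM in rhomboideus, 646 in trapezius and 1282 in extensor digitorum communis, and in A3 at 2053 CPM in biceps brachii and 3694 in the caudal portion of biceps femoris. Every A1 muscle lay above every A2 muscle, and every A3 muscle did so too. The fitted log2FC was 2.20 ± 0.36 (SE) for A1 against A2 and -1.76 ± 0.40 (SE) for A2 against A3. For A1 against A3, which overlapped, it was 0.44 ± 0.39 (SE), and 0.19 with no TMM.

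CASQ1 in A1 was at 510 CPM in triceps brachii, 592 in supraspinatus, 641 in longissimus and 685 in infraspinatus. It was at 311, 382 and 420 CPM in extensor digitorum communis, rhomboideus and trapezius of A2 and at 337 and 412 CPM in biceps brachii and the caudal portion of biceps femoris of A3. A1 lay above A2 and above A3 without overlap, whereas A2 and A3 overlapped, so A3 overlapped A1 in the pump and A2 in the buffer. With no TMM, A2 lay just below A3 in CASQ1, with 406 CPM as its highest level and 409 CPM as the lowest of A3. The fitted log2FC was 0.68 ± 0.19 (SE) for A1 against A2, 0.67 ± 0.22 (SE) for A1 against A3, which was 0.42 ± 0.23 (SE) with no TMM, and -0.01 ± 0.22 (SE) for A2 against A3. Over all 14770 genes, 7.16% lay above A2 without overlap in A1, 7.86% above A3 in A1, and 13.8% below A3 in A2, so that such separation is common between groups of this size.

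Within group B, the extremes of the pump were in B2 and B3. ATP2A1 was at 1612 CPM in omohyoideus and 1095 in extensor digitorum lateralis of B2, and at 4278 CPM in extensor carpi radialis and 2739 in extensor digitorum longus of B3. The 5 muscles of B1, pectoralis, semitendinosus, gluteus superficialis and the vertebral and middle portions of biceps femoris, lay between 2072 and 3309 CPM, above B2 and overlapping B3. CASQ1 was at 439 to 664 CPM in B1, at 407 and 366 CPM in B2 and at 450 and 454 CPM in B3. B1 lay above B2 and B2 below B3 for both genes, which was also so for 9.91% and 17.9% of all genes.

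The fitted log2FC of ATP2A1 was 0.86 ± 0.35 (SE) for B1 against B2 and -1.35 ± 0.41 (SE) for B2 against B3, and that of CASQ1 was 0.50 ± 0.26 (SE) and -0.21 ± 0.30 (SE). For B1 against B3, which overlapped in both genes, it was -0.49 ± 0.33 (SE) for ATP2A1 and 0.29 ± 0.25 (SE) for CASQ1. These 2 values were -0.21 and 0.56 without TMM. With no TMM, B1 and B2 overlapped in both genes and B2 and B3 overlapped in CASQ1, whose log2FC was then 0.15. The read ratio, which no scaling touches, was 3.997 to 4.99 in B1, 2.997 and 3.96 in B2, and 6.04 and 9.50 in B3. B3 lay above both others, whereas B1 and B2 were separated only by semitendinosus and omohyoideus, whose counting intervals overlapped. The ratio is a single measure, so no share over all genes stands beside it. In group A it was 5.02 to 8.09 in A1, 1.54 to 4.12 in A2, and 6.09 and 8.96 in A3, so that A2 lay below both others.

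**Figure D4:**
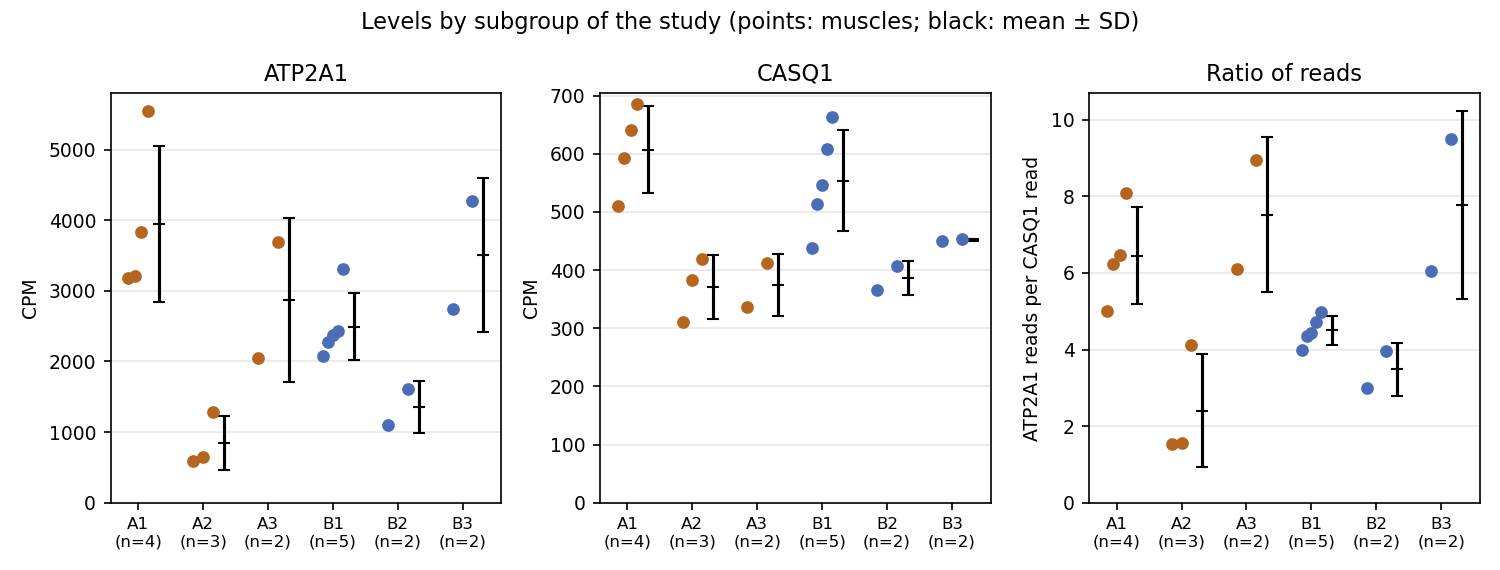
CPM of ATP2A1 (left) and CASQ1 (middle) and their read ratio (right) by subgroup of the study, with 1 point per muscle and the mean ± SD in black. A2 has the lowest mean of ATP2A1 and of the ratio, at 596 to 1282 CPM and 1.54 to 4.12, whereas CASQ1 with TMM is at 439 CPM or more in A1 and B1 and at 420 CPM or less in A2 and B2.

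The genes most like each member were sought among 4034 genes with a mean of at least 10 CPM by Pearson's r of log2 CPM over the 18 muscles. These values are descriptions, and the muscles share 1 horse and the scaling. For ATP2A1, MYBPC2, the myosin-binding protein of fast fibres, came first with r = 0.91 and PFKM, the muscle phosphofructokinase of glycolysis, second with r = 0.89. The other 3 of the first 5 have no name here, among them ENSECAG00000001810 with r = 0.89. The 5 genes most like CASQ1 all lack a name, with ENSECAG00000024158 first at r = 0.89, and neither member was among the 5 most like the other. The 3 genes with the lowest r also lack a name, from -0.87 for ATP2A1 and from -0.77 for CASQ1.

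Among the genes with a name, 7 of 8 fast fibre genes had a positive r with each member, the exception being MYOM2, an M-band protein, with -0.43 and -0.25. Its Spearman's rho was -0.07 with ATP2A1 and -0.20 with CASQ1. MYOM2 was highest in rhomboideus, at 1905 CPM, where ATP2A1 was lowest. MYH1 had r = 0.87 with ATP2A1 and 0.62 with CASQ1. MYOZ1 and ACTN3, both of the Z-disc of fast fibres, had a higher r with CASQ1, 0.85 and 0.79, than with ATP2A1, 0.66 and 0.67. All 8 named glycolytic enzymes had a positive r, from 0.68 to 0.89 with ATP2A1 and from 0.52 to 0.75 with CASQ1, and 7 of them were closer to the pump. All 10 slow fibre genes had a negative r, from -0.75 in TNNT1 to -0.35 in MYOM1 for ATP2A1 and from -0.60 in CASQ2 to -0.13 in TNNC1 for CASQ1.

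**Figure D5:**
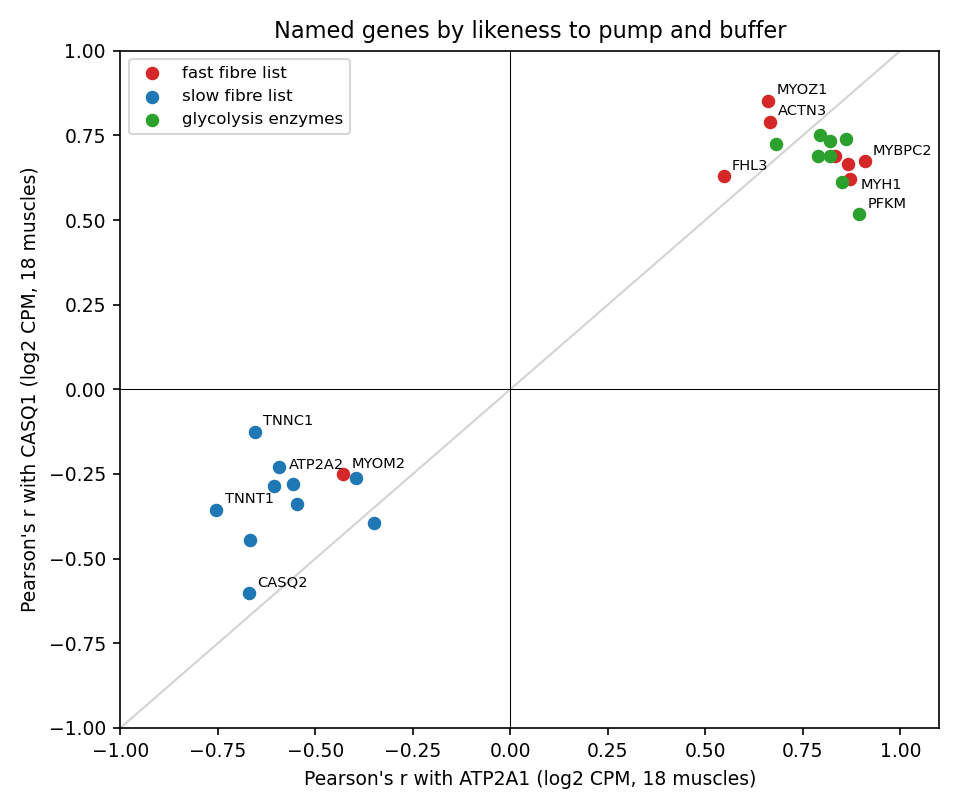
Pearson's r of log2 CPM with CASQ1 against r with ATP2A1 over the 18 muscles for 26 named genes, coloured by list, with the line of equal r in grey. MYOZ1 and ACTN3 lie above the line at 0.85 and 0.79, PFKM lies below it at 0.52, and the slow fibre genes are negative for both members.

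Not every muscle high in the pump was high in MYH1. It was the only fast myosin paired with an identifier, so the levels of other fast myosins are not known here. Extensor carpi radialis had the highest MYH1, 28709 CPM, and the second ATP2A1. Infraspinatus had the highest ATP2A1 and CASQ1 but ranked 10 in MYH1 at 6752 CPM, with MYH7 at 12650 CPM. Semitendinosus was second in MYH1 at 16961 CPM and ninth in ATP2A1 at 2429 CPM. Omohyoideus and extensor digitorum communis had MYH1 at 291 and 301 CPM with ATP2A1 at 1612 and 1282 CPM, while rhomboideus and trapezius had MYH1 at 134 and 165 CPM. The log2 ratio of MYH1 to MYH7 reads had r = 0.87 with ATP2A1, 0.57 with CASQ1 and 0.80 with the log2 ratio of pump to buffer. Spearman's rho was 0.74, 0.60 and 0.61 in the same order.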

How the data were processed

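RNA of 18 muscles of 1 horse was sequenced by the study as paired Illumina reads. Reads were trimmed, aligned to EquCab2 with STAR 2.5.2b in a guided repeat pass, and counted per Ensembl gene. The authors deposited raw counts without normalization in a table of 25239 genes, and all columns were mapped to a muscle by its name. The table pairs no identifier with a name, so 28 genes were named by matching counts that the study shows for named genes. Gene position, length and sequence were not used here.

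The deposited counts went into edgeR 4.0.16 under R 4.3.3 (filterByExpr, TMM, glmQLFit, glmQLFTest, Benjamini-Hochberg adjustment). The anterior and posterior muscles were fitted alone and the regions in 1 fit of all muscles, with DESeq2 1.42.0, other scalings and filters, and each muscle left out as alternatives. A call required an adjusted p under 0.05 together with a log2FC beyond 0.58 in either direction. Log2 CPM for correlations had a prior count of 2. Ratios used exact permutation tests in scipy. The tests were tried on simulated data, from which no result is given or used here.

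The members and lists were chosen with earlier results of these data known. The genes named are the members, calcium handling genes with an identifier, and the genes with the 5 highest and 3 lowest r with each member. The other fibre and glycolysis genes were added for comparison, and the comparisons with MYH1, of biceps femoris portions and without rhomboideus and trapezius were chosen after values were seen.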

Additional observations from a re-analysis of the deposited data

Results flagged for a closer look

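A single muscle far from the others of its group was sought for ATP2A1, CASQ1 and their read ratio in each group of 4 to 10 muscles, 27 cases in all, of which about 5% would be marked by chance. In 3 cases a muscle stood apart. In the proximal hindlimb the caudal portion of biceps femoris had a read ratio of 8.96, and its gap to the next muscle was 0.801 of the range of the 5 muscles, where the critical value is 0.71. In group B the ratio of extensor carpi radialis was 9.50, with a gap of 0.532 of the range of 9 muscles against a critical value of 0.493. In subgroup B1 the vertebral portion of biceps femoris had ATP2A1 at 3309 CPM, with a gap of 0.711 of the range of 5 muscles, just over the critical value of 0.71. This mark depended on TMM. With library totals that portion was at 3868 CPM, next to gluteus superficialis at 3333 CPM, in a range that began at 1766 CPM in pectoralis. No test found the effect of a contrast to differ between fore- and hindlimb.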

How the results depend on the processing

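No paired analysis was possible because the labels give no replicate numbers and each muscle has 1 library. None of the 10 log2FC and 4 differences in ratio passed its threshold in the main analysis, in 86 alternative values or in 250 values that left out a muscle. In many of the 250 the muscle left out was not part of the comparison. The lowest adjusted p among all these values was 0.0522, from DESeq2 for CASQ1 in distal muscles. For the ratio this is no sign of stability, as the exact permutation tests had fewer splits when muscles were left out. With 2 against 6 muscles, for example, p could not go below 0.0714. The sign changed in 7 of the 86. The log2FC of ATP2A1 for position was 0.095 with the biceps femoris portions summed, 0.0078 with the trunk muscle counted as anterior and 0.22 with rhomboideus and trapezius left out, and the difference in log2 ratio was 0.0055 with the portions summed and 0.28 without those 2 muscles. With no TMM the log2FC of CASQ1 was 0.067 for girdle and neck and 0.25 for the interaction, but the median of all genes then moved to 0.14 and 0.276, relative to which CASQ1 was at -0.073 and -0.027. Without TMM the median was -0.151 for the proximal muscles, where ATP2A1 was at 0.14 and CASQ1 at -0.27 (0.295 and -0.121 relative to it), and -0.18 for distal muscles, where ATP2A1 was at -0.62 and CASQ1 at -0.59. For position ATP2A1 was then at -0.17 and CASQ1 at -0.25. The fold range of ATP2A1 was 7.21 with no TMM, 8.61 without the 10 most abundant genes in the totals and 5.06 without rhomboideus and trapezius, and that of CASQ1 was 2.55 and 1.88 under the first 2. Leaving out 1 muscle at a time, the range was 7.17 to 9.29 for ATP2A1 and 2.03 to 2.20 for CASQ1.

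Leaving out 1 muscle changed a sign in 21 of the 250 values. Many of the 250 left out a muscle outside the regions compared. Such a muscle could not change the difference in ratio and moved the log2FC little, so 250 overstates the number of real checks. The log2FC ran from -0.23 to 0.092 for ATP2A1 and from -0.25 to -0.082 for CASQ1 and position, the latter without the vertebral portion of biceps femoris, from -0.19 to 0.12 for CASQ1 in the proximal muscles, from -0.23 to 0.019 for CASQ1 in girdle and neck, and in the interaction from -0.95 to 0.97 for ATP2A1 and -0.35 to 0.17 for CASQ1. For ATP2A1 it ran from 0.10 to 0.57 in the proximal muscles and from -1.03 to -0.17 in distal muscles. The difference in log2 ratio ran from -0.22 to 0.071 for position, from 0.30 to 0.59 for the proximal muscles and from -0.45 to 0.11 for distal muscles. For girdle and neck it ran from -1.62 to -1.09, and the log2FC of ATP2A1 from -1.74 to -0.81. The number of genes called differed by tool. DESeq2 called 146 genes for position, 99 for the proximal muscles and 109 for girdle and neck, where edgeR called 5, 2 and 0, and with no TMM edgeR called 818 in place of 1606 for distal muscles. With no filter, 3 genes were called for girdle and neck. At least 10 counts in every library left 2 and 0 genes for position and the proximal muscles, and the trunk muscle as anterior left 1 for position. The cause of these changes was not tested. Counting error of 1.33% at most for ATP2A1 and 1.76% for CASQ1 did not limit these comparisons, whereas the spread between muscles left an interval of -0.85 to 0.79 for ATP2A1 and position.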
